A study of Bos taurus with 15 samples.

Results

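Polyamine synthesis and its control by antizyme were examined through 9 genes, AZIN1, ODC1, OAZ1, OAZ2, AMD1, SRM, SMS, SAT1 and ARG2, each with 1 entry among the 32671 entries of the gene table. The genes were chosen by symbol. AZIN1 had stood among the genes with the smallest p between Sub-fertile and High-fertile heifers in earlier results of these data, and the other 8 were taken from the same pathway. The differences of AZIN1 from the High-fertile class are therefore given as a description, with no test. All 9 genes passed the filter on low counts, with 182 to 24192 reads per library.

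RNA was sequenced from endometrium, the lining of the uterus, of 15 cattle (beef heifers, Bos taurus). It was biopsied with forceps after the uterus was flushed, on day 14 of pregnancy. By the labels, 5 animals were High-fertile, 5 Sub-fertile and 5 Infertile. All were synchronised alike with prostaglandin, GnRH, a progesterone insert, and estradiol (2.5 mg) given together with progesterone (50 mg), and animals that showed no estrus also had GnRH and 1 mg estradiol benzoate. All received an in vivo produced embryo on day 7, on the side of the corpus luteum. The labels do not state breed, age, how classes were assigned, or whether a conceptus was recovered. Libraries are of single animals, and the SDs below are between animals. The labels number no replicates, so the replicate numbers used here follow the order of the samples, serve as names alone and pair no animals.

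Polyamines (putrescine, spermidine and spermine) are small charged molecules that growing cells need for translation and nucleic acid folding. Ornithine decarboxylase, the product of ODC1, makes putrescine from ornithine. Antizymes, the products of OAZ1 and OAZ2, bind ornithine decarboxylase and send it to the proteasome, and antizyme inhibitor, the product of AZIN1, resembles ornithine decarboxylase without its activity and takes up antizyme in its place. Antizyme itself is made by a ribosomal frameshift that polyamines promote, so a transcript level does not give the amount of antizyme protein. In ruminants, polyamines derived from arginine and ornithine are known to support growth of the conceptus.

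Libraries held 40542008 to 56164970 counted reads for High-fertile animals, 38017136 to 62858724 for Sub-fertile animals and 40061511 to 51009815 for Infertile animals. Markers of epithelium (7 of 7), stroma (6 of 6) and uterus (4 of 4) were all measured, and the summed smooth muscle markers ranged from 259 to 9188 FPKM over the libraries; FPKM, the authors' unit, scales reads to gene length and library size. Of 5 trophoblast markers 4 were in the table, TKDP1 was at 0 in every library, and IFNT2 was at 0.251 to 1.51 CPM (counts scaled to a common library size). The labels name no batch. The counts of 363 pseudogene and ribosomal RNA entries split the libraries, without use of the class, into sets of 8, 5 and 2. High-fertile replicate 1 and Infertile replicate 2 formed the set of 2, with 1.09% and 1.21% of counts in such entries against 2.39% to 3.28% elsewhere. The set of 5 comprised Infertile replicates 3 and 5 with Sub-fertile replicates 1, 2 and 5, and no High-fertile library, so class and set were partly confounded. In an edgeR model with class and set, 30.7% of 19962 genes passed an adjusted p of 0.05 between the sets of 5 and 8. The sets were drawn from these same counts, and the 363 entries are among the genes tested. Differences between sets are therefore a description and no test. Each result below is given with the set where it bears on it.

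Per length, the 9 transcripts covered a wide range of levels, and most neighbours in their order overlapped. SAT1, whose product acetylates spermidine and spermine for export or breakdown, was at 342 ± 92.9 FPKM (SD, n = 15), and OAZ1 at 276 ± 23.6 FPKM. SMS (spermine synthase) followed at 154 ± 63.5 FPKM. OAZ2 was at 54.2 ± 6.99 and AZIN1 at 51.5 ± 9.77 FPKM, levels whose ranges overlapped. ODC1 was at 34.9 ± 6.58 FPKM and AMD1, which makes the decarboxylated S-adenosylmethionine that donates aminopropyl groups, at 28.6 ± 4.56 FPKM. SRM (spermidine synthase) and ARG2 (arginase 2, which makes ornithine from arginine) were lowest, at 5.86 ± 1.53 and 4.53 ± 1.01 FPKM. Ranges of neighbours in this order overlapped except between AMD1, at 21.9 FPKM or more, and SRM, at 9.26 FPKM or less. The antizyme transcript OAZ1 was thus above both ODC1 and AZIN1 in every library, since its lowest value was 230 FPKM and theirs peaked at 44.7 and 69.4 FPKM.

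AZIN1 was at higher values in both classes of lower fertility than in High-fertile endometrium. High-fertile replicates 1 to 5 were at 191, 211, 197, 160.0 and 171 CPM. Sub-fertile replicates were at 244, 249.9, 261, 239 and 254 CPM and Infertile replicates at 222, 237, 278, 269.7 and 324 CPM. Every Sub-fertile and every Infertile heifer lay above every High-fertile heifer, and the Sub-fertile heifers were close together while the Infertile ones spread widely. Means were 186 ± 20.2 (SD, n = 5), 249 ± 8.58 and 266 ± 39.5 CPM. Against High-fertile, the log2 fold change was 0.42 ± 0.115 (SE) in Sub-fertile and 0.52 ± 0.115 in Infertile heifers, or 1.34-fold and 1.43-fold. Both comparisons use the same High-fertile libraries. With the library set as a covariate the log2 fold changes were 0.33 ± 0.116 and 0.45 ± 0.108. Within the set of 8 libraries, with 4 High-fertile, 2 Sub-fertile and 2 Infertile heifers, they were 0.42 and 0.40. Over all genes tested, 2.26% were higher without overlap in Sub-fertile and 1.13% in Infertile than in High-fertile heifers, and nothing is read from AZIN1 being among them. In whole biopsies, more cells of a type that holds a transcript and more of it per cell cannot be told apart. AZIN1 did not differ beyond the spread between Sub-fertile and Infertile heifers (log2 fold change 0.09 ± 0.115; edgeR adjusted p = 0.998).

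**Figure D1:**
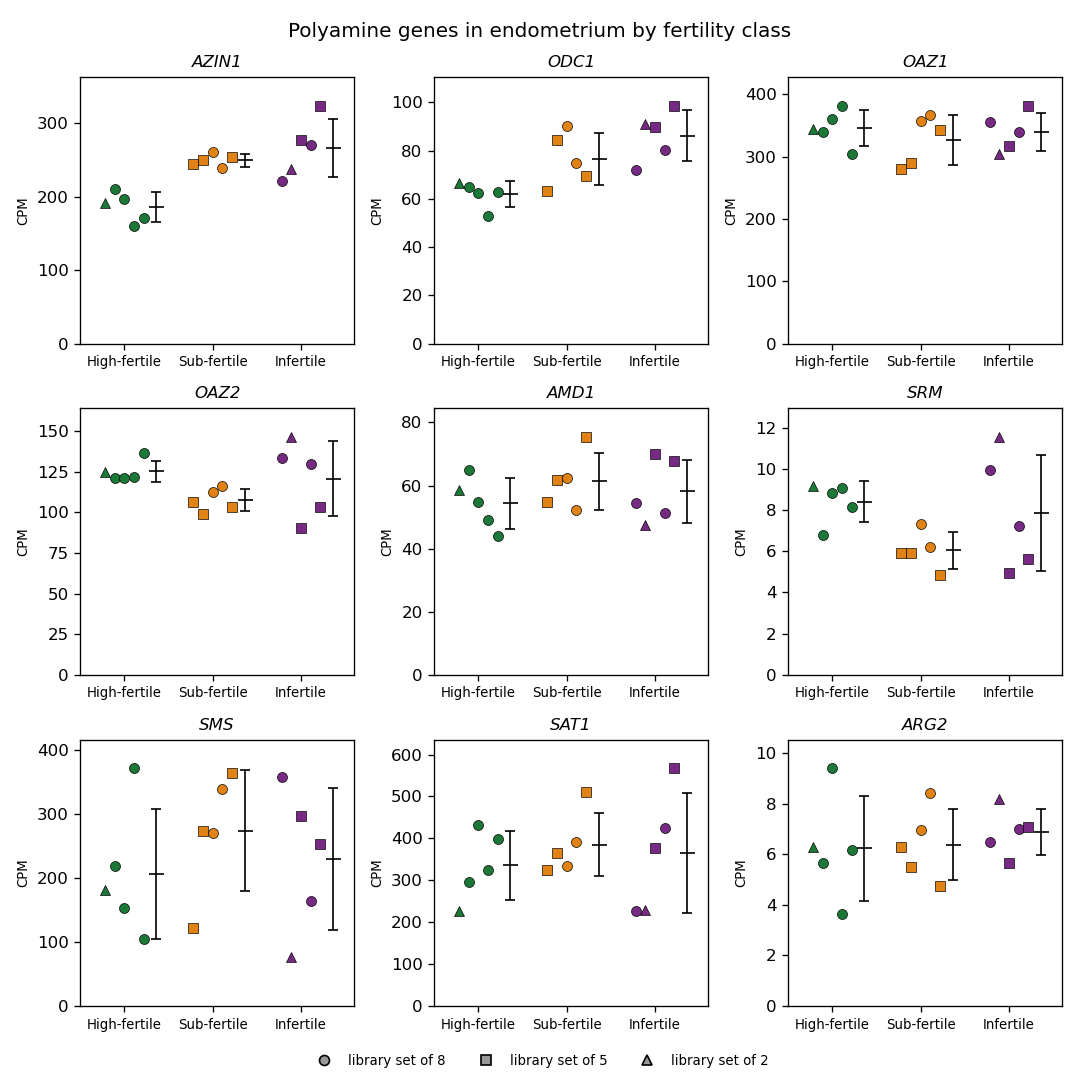
CPM of the 9 genes in each of 15 heifers by fertility class, with marker shape for the library set and the mean ± SD of 5 heifers at the right of each class. All Sub-fertile and Infertile heifers lie above all High-fertile heifers for AZIN1, and SMS covers a wide range in every class.

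ODC1, the enzyme that AZIN1 protects from antizyme, was also at higher values in the classes of lower fertility, without passing the threshold over all genes. High-fertile replicates were at 66.7, 64.8, 62.4, 52.9 and 62.98 CPM. Sub-fertile replicates were at 63.2, 84.2, 90.3, 75.0 and 69.5 CPM and Infertile replicates at 71.8, 91.1, 89.6, 80.1 and 98.6 CPM. Infertile and High-fertile heifers did not overlap, while Sub-fertile replicate 1 lay among the High-fertile ones. Of all genes tested 1.13% were higher without overlap in Infertile than in High-fertile heifers. Means were 61.9 ± 5.31 (SD, n = 5) in High-fertile, 76.5 ± 10.9 in Sub-fertile and 86.2 ± 10.4 CPM in Infertile heifers. The log2 fold change of Infertile against High-fertile was 0.48 ± 0.119 (SE; edgeR adjusted p = 0.435, unadjusted p = 0.00118). With DESeq2 this difference passed (adjusted p = 0.0454), and over the alternatives its adjusted p ran from 0.0454 to 0.903. For Sub-fertile against High-fertile the log2 fold change was 0.30 ± 0.119 (edgeR adjusted p = 0.360). With the library set as a covariate the 2 values were 0.46 ± 0.123 and 0.31 ± 0.130, and within the set of 8 they were 0.31 and 0.43. The Infertile and Sub-fertile classes overlapped (log2 fold change 0.17 ± 0.119; edgeR adjusted p = 0.998).

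Neither antizyme transcript passed in any class comparison. OAZ1, the most abundant antizyme, was at 345 ± 28.5 CPM in High-fertile, 327 ± 39.9 in Sub-fertile and 339.7 ± 30.8 CPM in Infertile heifers (SD, n = 5 each), with overlapping ranges of 304 to 381, 279 to 367 and 304 to 381 CPM. Its log2 fold changes against High-fertile were -0.08 ± 0.112 and -0.02 ± 0.112 (edgeR adjusted p = 0.721 and 0.942). With the set as a covariate they were -0.042 and 0.020, and within the set of 8 they were 0.053 and -0.0011, so the sign of these small values depends on the set. The spread of log2 CPM within classes was 0.146 for OAZ1, and 5.20% of the genes tested had a lower one. OAZ2 was at 125, 121, 121, 122 and 137 CPM in High-fertile and at 107, 99.0, 113, 116 and 104 CPM in Sub-fertile heifers, which did not overlap. In Infertile heifers it was at 133, 147, 90.1, 129.9 and 104 CPM, across the range of both. The log2 fold change of OAZ2 was -0.22 ± 0.122 in Sub-fertile (edgeR adjusted p = 0.378) and -0.05 ± 0.122 in Infertile heifers (adjusted p = 0.874). Of all genes tested 2.81% were lower without overlap in Sub-fertile heifers. OAZ2 followed the library sets, at 90.1 to 107 CPM in the set of 5 and 113 to 137 CPM in the set of 8. That difference was -0.30 ± 0.0796 on the log2 scale, given as a description because the sets were drawn from these same counts. It is not particular to OAZ2, since 30.7% of all genes passed between these sets. The share of all genes that separate them without overlap was not counted. With the set as a covariate the log2 fold change of OAZ2 was -0.015 in Sub-fertile and 0.049 in Infertile heifers. Within the set of 8 it was -0.14 and 0.06.

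**Figure D2:**
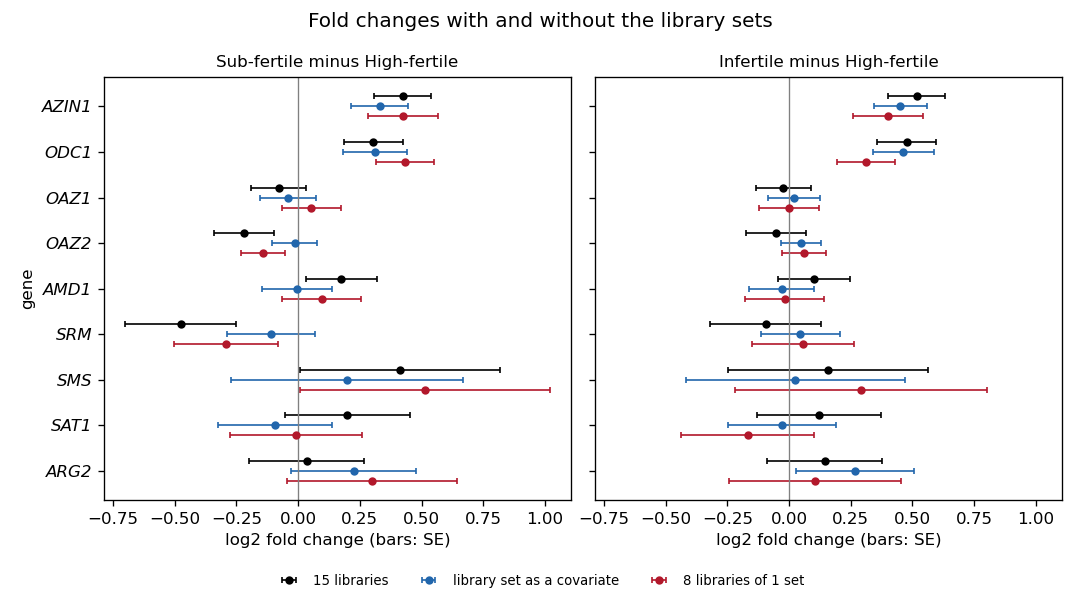
Log2 fold changes (horizontal axis, bars SE) of the 9 genes in Sub-fertile and Infertile against High-fertile heifers, from all 15 libraries, with the library set as a covariate and from the 8 libraries of 1 set. AZIN1 and ODC1 lie between 0.30 and 0.52 in all 3 fits, while OAZ2 and SRM move toward 0 in Sub-fertile heifers once the set is in the model.

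Ratios within a library do not depend on scaling between libraries, and they set AZIN1 and ODC1 against the antizyme transcript. The FPKM ratio of AZIN1 to OAZ1 was 0.150, 0.167, 0.147, 0.113 and 0.151 in High-fertile, 0.2345, 0.232, 0.197, 0.175 and 0.199 in Sub-fertile, and 0.167, 0.210, 0.235, 0.213 and 0.228 in Infertile heifers. Every heifer of the lower classes was above the High-fertile ones, Infertile replicate 1 by the least. The FPKM ratio of ODC1 to OAZ1 was 0.103 ± 0.0150 (SD, n = 5) in High-fertile, 0.134 ± 0.0210 in Sub-fertile and 0.145 ± 0.0219 in Infertile heifers, with ranges that overlapped. The FPKM ratio of AZIN1 to ODC1 was 1.42 ± 0.101, 1.57 ± 0.202 and 1.46 ± 0.140 in the 3 classes. Over single heifers it ran from 1.23 in Infertile replicate 2 to 1.83 in Sub-fertile replicate 1. These ratios include AZIN1 or follow from the values above, and they carry no test.

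**Figure D3:**
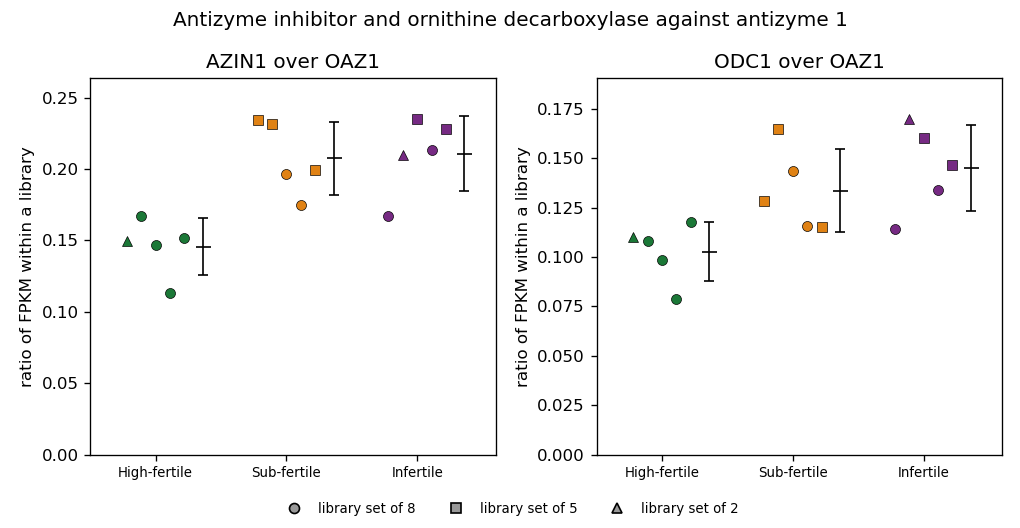
FPKM ratio of AZIN1 to OAZ1 (left) and of ODC1 to OAZ1 (right) in each heifer by class, with mean ± SD and marker shape for the library set. For AZIN1 the High-fertile heifers lie at 0.113 to 0.167 and the Sub-fertile heifers at 0.175 to 0.2345.

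With the class differences included, AZIN1 and ODC1 varied together from heifer to heifer. Pearson's r of log2 CPM was 0.846 and Spearman's rho was 0.779. These hold the class difference that AZIN1 was picked for, so they are given with no test. Without the 2 heifers farthest from the median of AZIN1, r was 0.772. Within the set of 8 libraries r was 0.933 and rho 0.952, and the sets of 5 and 2 hold too few libraries for a value. As deviations from the means of the library sets r was 0.881. Neither value removes the class difference. As deviations from the class means, which removes the class differences, r was 0.606 and did not pass (permutation p = 0.0168, adjusted p = 0.0756). On that scale AZIN1 had r = 0.702 with AMD1 and -0.660 with SRM. The permutation took no account of the class means already removed, so its p is too small on that scale. These 2 values are therefore given with no test. As deviations from the means of the library sets they were 0.326 and -0.309. Within the set of 8, AZIN1 had r = 0.499 with AMD1 and -0.515 with SRM. Neither passed there (exact permutation p = 0.213 and 0.193).

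**Figure D4:**
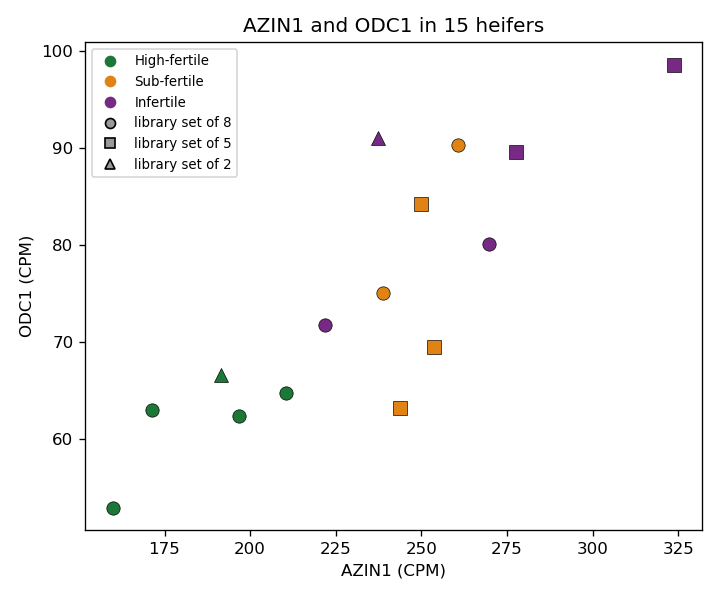
ODC1 against AZIN1 (both CPM) in 15 heifers, with colour for the class and marker shape for the library set; the axes do not start at 0. High-fertile heifers lie at the lower left, and Infertile replicate 5 is highest for both genes at 324 and 98.6 CPM.

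Named genes whose log2 CPM was most like AZIN1 over the 15 libraries were ETF1 (r = 0.945), MYL12B (0.934), GDE1 (0.916), APOO (0.911) and MAPK6 (0.909). ODC1 ranked 48 of 19961 genes in this order, AMD1 2260 and SRM 17888. For ODC1 the named genes were SLC9A4 (r = 0.911), KIF23 (0.858), ATP6V1E1 (0.856), AZIN1 (0.846) and TACR1 (0.834). SLC9A4 was at a mean of 0.304 CPM, where few reads carry each value. The points of these correlations share class and library set, and no test was made.

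Of the aminopropyl steps, AMD1 did not pass in any class comparison and SRM differed between the library sets. AMD1 was at 44.1 to 64.9 CPM in High-fertile, 52.2 to 75.4 in Sub-fertile and 47.6 to 69.9 CPM in Infertile heifers, which overlapped. Its log2 fold changes against High-fertile were 0.17 ± 0.145 and 0.10 ± 0.145 (edgeR adjusted p = 0.528 and 0.781), and with the set as a covariate they turned to -0.0049 ± 0.141 and -0.031 ± 0.132. The difference of AMD1 between the sets of 5 and 8, 0.29 ± 0.125 on the log2 scale, is given as a description alone. SRM was at 9.15, 6.79, 8.83, 9.09 and 8.16 CPM in High-fertile and at 5.90, 5.91, 7.30, 6.23 and 4.85 CPM in Sub-fertile heifers. High-fertile replicate 2 and Sub-fertile replicate 3 were the heifers that overlapped. Infertile replicates were at 9.95, 11.6, 4.94, 7.24 and 5.64 CPM, both above and below the other classes. The log2 fold change of SRM was -0.48 ± 0.225 in Sub-fertile (edgeR adjusted p = 0.360) and -0.09 ± 0.224 in Infertile heifers (adjusted p = 0.878). In the set of 5 SRM was at 4.85 to 5.91 CPM and in the set of 8 at 6.23 to 9.95 CPM, a log2 difference of -0.51 ± 0.158. It too is a description, and the share of all genes that separate these sets was not counted. With the set as a covariate the Sub-fertile log2 fold change of SRM was -0.11.

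Of the 36 pairs of the 9 genes, 5 passed an adjusted permutation p of 0.05 over the 15 heifers. AZIN1 with ODC1 was 1 of them, and it holds the class difference that AZIN1 was picked for. The others were OAZ2 with SRM, OAZ2 with AMD1, AMD1 with SRM, and SRM with SAT1. OAZ2 and SRM were lower in the set of 5 than in the set of 8, so for these last pairs r is given within the set of 8 alone. There r was 0.504 for OAZ2 with SRM (rho 0.548; exact permutation p of r = 0.198) and -0.623 for OAZ2 with AMD1 (rho -0.667; exact permutation p of r = 0.0982). It was -0.312 for AMD1 with SRM (rho -0.238; exact permutation p of r = 0.455) and -0.398 for SRM with SAT1 (rho -0.214; exact permutation p of r = 0.333). None of these 4 pairs passed there.

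SMS, which adds the last aminopropyl group to make spermine, was the most variable of the 9 transcripts. It was at 181, 219, 153, 372 and 105 CPM in High-fertile, 122, 273, 271, 339.5 and 365 CPM in Sub-fertile, and 359, 76.0, 297, 164 and 254 CPM in Infertile heifers. High and low heifers occurred in every class, with a 4.90-fold range over the 15 libraries. The spread of log2 CPM within classes was 0.741, higher than for 93.5% of the genes nearest to it in level. The log2 fold changes against High-fertile were 0.41 ± 0.406 and 0.16 ± 0.406 (edgeR adjusted p = 0.596 and 0.889). Leaving out 1 library moved the Sub-fertile value between 0.25 and 0.74, the lowest without High-fertile replicate 5 and the highest without High-fertile replicate 4.

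A second entry, LOC534520, described in the table as a spermine synthase pseudogene, held nearly as many reads as SMS, and the sources used here do not give how reads matching both were placed. The count ratio of LOC534520 to SMS was 0.794 to 0.917 in the set of 8, 0.723 to 0.759 in the set of 5, and 0.231 and 0.247 in the set of 2, which are Infertile replicate 2 and High-fertile replicate 1. Within the set of 8 the log2 CPM of both entries had r = 0.996, as a description of entries that can share reads. The level of SMS alone is therefore uncertain. With both entries summed, an alternative chosen after the data were seen, the log2 fold changes were 0.45 and 0.16.

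**Figure D5:**
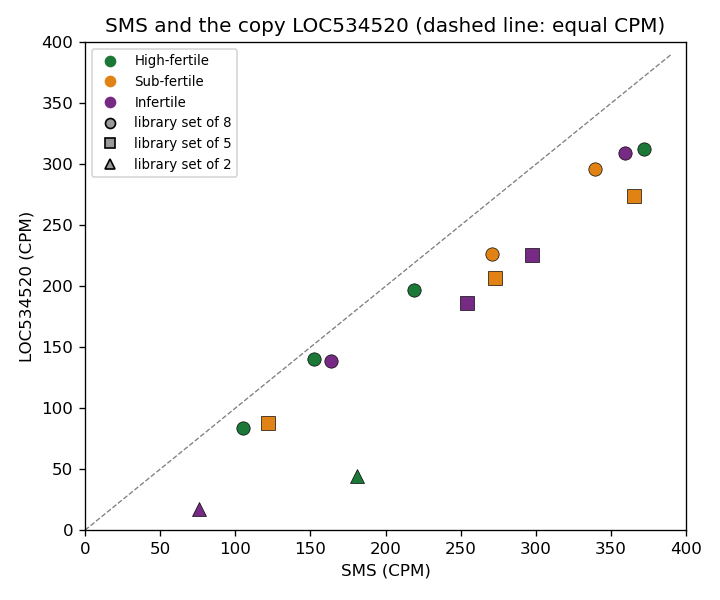
CPM of LOC534520 against SMS in 15 heifers, with colour for the class, marker shape for the library set and a dashed line at equal CPM. The 13 libraries of the sets of 8 and 5 follow the line from below, and the 2 libraries of the set of 2 lie far under it.

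Named genes most like SMS over the 15 libraries, a gene added to this search after its values were seen, were PIP5K1B (r = 0.982), ACSL1 (0.960), ST18 (0.955), PDP2 (0.954) and MANBA (0.949). OAZ1 and SMS had r = 0.566 over 15 heifers (rho 0.479; permutation adjusted p of r = 0.125) and 0.815 within the set of 8 (rho 0.643; exact permutation p of r = 0.00950, adjusted p = 0.171), and passed in neither. As deviations from the class means the pair had r = 0.688 (rho 0.607). It is given with no test, because the permutation took no account of the class means already removed.

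SAT1, the gene of polyamine acetylation and the most abundant of the 9 per length, differed more between heifers than between classes. It ranged from 225 to 432 CPM in High-fertile, 325 to 511 in Sub-fertile and 226 to 568 CPM in Infertile heifers, with means of 335 ± 82.4, 385 ± 74.8 and 365 ± 144 CPM (SD, n = 5). The log2 fold changes against High-fertile were 0.20 ± 0.252 and 0.12 ± 0.252 (edgeR adjusted p = 0.683 and 0.860), and with the set as a covariate they were -0.09 and -0.03. Both libraries of the set of 2, at 225 and 229 CPM, and Infertile replicate 1, at 226 CPM, were lowest. Named genes most like SAT1 were APAF1 (r = 0.918), RASEF (0.916), GOLGA5 (0.914), UST (0.909) and REPS1 (0.905). ARG2 was at 3.62 to 9.40 CPM over all heifers, with class means of 6.22 ± 2.07, 6.38 ± 1.41 and 6.88 ± 0.923 CPM. Its log2 fold changes were 0.04 ± 0.233 and 0.14 ± 0.233 (edgeR adjusted p = 0.945 and 0.809).

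In each of the 3 comparisons 6 of the 9 genes had a log2 fold change above 0, but not the same 6. AZIN1, ODC1 and ARG2 were above 0 in all 3. AMD1, SMS and SAT1 were above 0 against High-fertile, and OAZ1, OAZ2 and SRM in Infertile against Sub-fertile heifers. The median was 0.17 in Sub-fertile and 0.12 in Infertile against High-fertile, beside 0.01 and 0.04 over all genes tested, and 0.09 beside 0.03 for Infertile against Sub-fertile. These counts and medians include AZIN1, which was picked for its difference from High-fertile. The share of all genes above 0 was not counted, and nothing is read from them. None passed an adjusted p of 0.05 in edgeR in any comparison, where 0% of 19962 genes did. DESeq2 called 18 genes in Sub-fertile and 33 in Infertile against High-fertile heifers. Leaving aside AZIN1, ODC1 was the member at an unadjusted p under 0.05 in the comparisons with High-fertile, 1 of 8 in both, where 13.7% of all genes were in Sub-fertile and 11% in Infertile heifers. A share of 1 in 8 is near these backgrounds and is no result about the members. In Infertile against Sub-fertile heifers 0 of the 9 were, against 2.63% of genes.

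Marker lists moved with some of these transcripts, and 8 of 99 relations of a gene to a list passed an adjusted permutation p of 0.05. The relation of AZIN1 to the ciliated cell markers is among these 8. It holds the class difference that AZIN1 was picked for, so it is given with no test. AZIN1 had r = 0.706 with that list (rho 0.686), 0.484 without the 2 farthest heifers and 0.706 within the set of 8. None of these values removes the class difference. ODC1 with the same list had r = 0.639 (permutation adjusted p = 0.0868; rho 0.593, adjusted p = 0.205), 0.392 without the 2 farthest heifers and 0.740 within the set of 8. Summed levels of these 4 markers were 13.5 to 36.3 FPKM in High-fertile, 14.2 to 72.3 in Sub-fertile and 21.3 to 64.0 FPKM in Infertile heifers, and their part in the AZIN1 and ODC1 values was not tested. SMS was low where the 4 proliferation markers were high, with r = -0.778 (permutation adjusted p = 0.00198; rho -0.789, adjusted p = 0.0244), -0.763 without the 2 farthest heifers and -0.894 within the set of 8. Summed proliferation markers were at 32.0 to 34.4 FPKM in High-fertile, 31.8 to 37.7 in Sub-fertile and 30.3 to 62.8 FPKM in Infertile heifers. SMS also ran against the stroma markers (r = -0.720, permutation adjusted p = 0.0400; -0.730 without the 2 farthest heifers; -0.742 within the set of 8; rho -0.664, adjusted p = 0.102). SRM was high where the 4 uterine markers were high, with r = 0.857 (permutation adjusted p = 0.00297; rho 0.893, adjusted p = 0.00297), 0.923 without the 2 farthest heifers and 0.857 within the set of 8. The summed uterine markers were at 142 to 174 FPKM in High-fertile, 101 to 196 in Sub-fertile and 58.0 to 194 FPKM in Infertile heifers. OAZ2 with the same list had r = 0.815 (permutation adjusted p = 0.00660; rho 0.846, adjusted p = 0.00841) and 0.547 within the set of 8. SAT1 had r = -0.738 (permutation adjusted p = 0.0317; rho -0.543, adjusted p = 0.257) and -0.615 within the set of 8. AMD1 had r = -0.711 (permutation adjusted p = 0.0400; rho -0.707, adjusted p = 0.0766) and only -0.0346 within the set of 8. OAZ1 with the epithelial markers had r = 0.742 over 15 heifers (permutation adjusted p = 0.0243; rho 0.650, adjusted p = 0.115), 0.539 without the 2 farthest heifers and 0.604 within the set of 8. The part of these markers in the levels of SMS, SRM, OAZ2, SAT1, AMD1 and OAZ1 was not tested either.

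The wider pathway was followed in 44 genes of 5 lists, all of them tested. None passed the threshold over all genes in edgeR in any comparison. In Sub-fertile against High-fertile heifers 17 of 44 had a log2 fold change above 0, with 0 higher and 2 lower at an unadjusted p under 0.05, against 6.58% and 7.14% of all genes. In Infertile against High-fertile heifers 24 were above 0, with 0 higher and 3 lower at that level, against 7.14% and 3.89% of all genes. The share of all genes above 0 was not counted, so no lean is read from the counts above 0, here or by list below. Of the 14 genes of ornithine and arginine supply, 4 and 6 were above 0. NOS1, a nitric oxide synthase that draws on arginine, was at 7.51 ± 1.07 CPM in High-fertile, 5.65 ± 2.25 in Sub-fertile and 4.63 ± 0.888 CPM in Infertile heifers (log2 fold change -0.70 ± 0.250 in Infertile; edgeR adjusted p = 0.435). AZIN2, a second antizyme inhibitor, had a log2 fold change of -1.13 ± 0.516 in Sub-fertile heifers (edgeR adjusted p = 0.360), at a level of 0.487 against 1.06 CPM. ASL, which releases arginine from argininosuccinate, was at 23.4 ± 8.13 in Infertile against 36.3 ± 5.41 CPM in High-fertile heifers (edgeR adjusted p = 0.450). AZIN2 and ASL, and MNT and MYC below, were named after their values were seen. ALDH18A1, which opens the route from glutamate to ornithine, had the highest level of the list at 56.0 FPKM and log2 fold changes of 0.15 and 0.22.

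Among 9 genes of methionine supply and salvage, 5 and 7 were above 0. MTAP, which recycles the by-product of spermidine and spermine synthesis, was at 25.1 ± 7.97 in Infertile against 18.9 ± 5.70 CPM in High-fertile heifers (edgeR adjusted p = 0.503). AHCY was the most abundant at 140.0 FPKM. Of 10 genes of back-conversion, breakdown and transport, 4 were above 0 in each comparison, and not the same 4: OAZ3 in Sub-fertile heifers alone and SAT2 in Infertile heifers alone. ATP13A3, a polyamine transporter, was at 512 ± 86.6 in Sub-fertile, 509.98 ± 204 in Infertile and 357 ± 63.9 CPM in High-fertile heifers, with log2 fold changes of 0.52 ± 0.245 and 0.51 ± 0.245 (edgeR adjusted p = 0.360 and 0.456). Its ranges overlapped between all classes. Of the 4 genes of hypusination, in which spermidine modifies the translation factor EIF5A, 1 and 2 were above 0. EIF5A was at 90.8 FPKM and DOHH, which completes the modification, had log2 fold changes of -0.63 ± 0.313 and -0.43 ± 0.312 (edgeR adjusted p = 0.362 and 0.565). In the MYC network, which acts on ODC1 transcription, 3 and 5 of 7 genes were above 0. MAX had a log2 fold change of -0.28 ± 0.109 in Infertile heifers (edgeR adjusted p = 0.439), and MNT was at 26.3 ± 8.57 in Sub-fertile against 39.1 ± 2.10 CPM in High-fertile heifers (edgeR adjusted p = 0.360). MYC itself was at 28.5 ± 3.55 in Sub-fertile, 43.8 ± 25.3 in Infertile and 41.0 ± 10.9 CPM in High-fertile heifers. Its log2 fold changes were -0.53 ± 0.294 and 0.10 ± 0.293 (edgeR adjusted p = 0.379 and 0.908). MXI1, the most abundant of this list at 21.1 FPKM, had log2 fold changes of 0.15 and 0.05. No test compared these lists with the 9 genes.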

How the data were processed

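Endometrial mRNA of 15 heifers was made into stranded TruSeq libraries, per the labels' protocols. The submitters' processing notes name FastQC, Subread, featureCounts, edgeR and the build UMD3.1. The sources used here do not give the strand setting or the handling of reads with several origins. The deposited table holds whole read counts per gene, which were tested, and the authors' FPKM values, used to compare levels between genes. Members matched by symbol, and 9 matched a RefSeq symbol of assembly ARS-UCD2.0, used for names alone.

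Testing used edgeR 4.0.16 (R 4.3.3): filterByExpr by class (19962 genes), TMM scaling, and 1 robust quasi-likelihood model with a mean per class over 15 libraries (12 residual degrees of freedom). P values are two-sided and Benjamini-Hochberg adjusted over all genes tested, with a threshold of 0.05. The test was checked on simulated data. Log2 CPM used a prior count of 2. Library sets came from average-linkage clustering of 363 pseudogene and ribosomal RNA entries, and as a covariate left 10 residual degrees of freedom. Correlations used 100000 permutations of the 15 libraries, or all 40320 orders of 8. Alternatives were RLE, upper quartile and library size scaling, no filter, DESeq2 1.42.0, limma-voom 3.58.1, the 10 libraries compared, the library sets and each library left out. Named genes were the 9 members, and per wider list the gene with the smallest p for any class difference, any under 0.05 and the one with the highest mean FPKM, beside the 5 genes most correlated with AZIN1, ODC1 and SAT1. Members and lists were chosen with earlier results of these data known.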

Additional observations from a re-analysis of the deposited data

Results flagged for a closer look

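Of 45 groups of 5 heifers examined (10 entries and 5 ratios in 3 classes), 4 held a sample far from the other 4, where chance flags about 1 in 20 groups. OAZ2 in High-fertile replicate 5 was at 137 CPM, above 121 to 125 CPM in the other High-fertile heifers. The count ratio of LOC534520 to SMS was 0.247 in High-fertile replicate 1, against 0.794 to 0.917 in the rest of its class. It was 0.231 in Infertile replicate 2, against 0.733 to 0.861 in the rest of its class. These are the 2 libraries with the smallest share of counts in pseudogene and ribosomal RNA entries. The count ratio of SRM to SMS was 0.152 in Infertile replicate 2 and 0.0166 to 0.0443 in the other Infertile heifers.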

How the results depend on the processing

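No paired analysis was possible because the labels give no replicate numbers, and the numbers used here are names in sample order. In edgeR 0 genes passed in any comparison. With DESeq2 18 genes passed for Sub-fertile and 33 for Infertile against High-fertile, 10 for Infertile against Sub-fertile and 34 for any difference. With limma-voom 1 gene passed for Infertile against High-fertile, 1 for Infertile against Sub-fertile and 1 for any difference. Without the set of 2 libraries 3 passed for Sub-fertile against High-fertile, and with 1 library left out 0 to 3 did (3 without High-fertile replicate 1 or Infertile replicate 5, 1 without High-fertile replicate 3 or Infertile replicate 1). The 5 correlated pairs became 1 within the set of 8, 1 as deviations from set means, 7 as deviations from class means, and 3 to 6 with 1 library left out (3 without Sub-fertile replicate 5 or Infertile replicate 5). For the deviations, the permutation took no account of the means already removed, so its p are too small and those counts may be too high.

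Of 702 alternative values of the 27 fold changes, 35 changed sign. None of the 27 was called in the main edgeR fit. AZIN1 and ODC1 kept their sign against High-fertile in every alternative run. With the library set as a covariate Sub-fertile against High-fertile turned to -0.0049 for AMD1 and -0.095 for SAT1, Infertile against High-fertile to 0.020 for OAZ1, 0.049 for OAZ2, -0.031 for AMD1, 0.045 for SRM and -0.029 for SAT1, and Infertile against Sub-fertile to 0.066 for SAT1. Within the set of 8, Sub-fertile against High-fertile turned to 0.053 for OAZ1 and -0.0098 for SAT1, Infertile against High-fertile to 0.062 for OAZ2, -0.018 for AMD1, 0.056 for SRM and -0.17 for SAT1, and Infertile against Sub-fertile to -0.022 for AZIN1, -0.12 for ODC1, -0.055 for OAZ1 and -0.19 for ARG2. OAZ1 in Infertile against High-fertile was 0.0077 with upper quartile scaling and 0.011 without the set of 2, and SAT1 in Infertile against Sub-fertile 0.050 without that set. With 1 library left out, Sub-fertile against High-fertile spanned -0.11 to 0.23 for ARG2. Infertile against High-fertile spanned -0.069 to 0.014 for OAZ1, -0.13 to 0.035 for OAZ2, -0.27 to 0.033 for SRM, -0.058 to 0.48 for SMS and -0.096 to 0.25 for SAT1. Infertile against Sub-fertile spanned -0.15 to 0.012 for AMD1 and -0.29 to 0.050 for SAT1. The cause of these changes was not tested. With 5 heifers a class, differences under the spread between animals can easily be missed, and the power to find them was not computed. SRM and ARG2 rest on the fewest reads (182 or more a library).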
